A study of Danio rerio with 10 samples.

Results

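The genes zgc:153044 (ENSDARG00000067564), mthfd2 (ENSDARG00000098646) and ugt2a5 (ENSDARG00000011537) lie close to aldh2.1 on zebrafish chromosome 5, and they were selected on their measured values because their levels differed between the aldh2.1 genotypes in these libraries. They are 3 of 32520 genes in the deposited tables, and all 3 were among the 21532 genes with enough counts to be tested. RNA was measured in whole larvae at 120 hours post fertilization (hpf), with no treatment, in aldh2.1-/- and aldh2.1+/+ larvae. Each genotype had 5 clutches, and each library held the RNA of the 50 larvae of a clutch. The labels number the clutches of each genotype 1, 2, 3, 5 and 6. The mutation is a frame-shifting deletion made with CRISPR/Cas9 in the Tg(fli1:EGFP) line, in which endothelial cells carry a green fluorescent protein, and the methods describe a single selected mutant line. The labels do not say whether clutches shared parents, or whether the aldh2.1+/+ clutches were siblings of the mutants, so the spread between libraries may not be that of independent families.

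Homozygous mutants of a line share the DNA around the mutation as well as the mutation itself, because neighbouring stretches of a chromosome are inherited together as a haplotype. Any sequence difference in that stretch, such as a variant in a promoter or a transcript, is then present in every mutant and can be absent from the wild type. Genes near a mutated locus are for this reason commonly read beside their chromosome position. Here aldh2.1 genotype and linked alleles cannot be told apart, since every library of a genotype carries both and the count and TPM tables hold no allele information.

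The 3 genes have different roles. mthfd2 encodes a mitochondrial enzyme that oxidizes folate-bound one-carbon units, which derive largely from serine and are used to make nucleotides. ugt2a5 belongs to the UDP-glucuronosyltransferases, membrane enzymes that attach glucuronic acid to lipophilic molecules and so make them easier to excrete. zgc:153044 is listed by a clone name only, and no role is given to it here. In the RefSeq gene order of assembly GRCz12tu, used for names and order alone, zgc:153044 stands 3 protein-coding genes before aldh2.1 with kiss1rb and mapkapk5 between them. mthfd2 stands 10 protein-coding genes after aldh2.1, between dguok and arl6ip4. ugt2a5 stands 19 protein-coding genes after it, between fsd1l and ythdc1. The end of the chromosome is close on that side, with 69 of its 1392 protein-coding genes after aldh2.1.

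The targeted gene and its neighbour were read first. aldh2.1, a mitochondrial aldehyde dehydrogenase, had 78.0, 151, 59.0, 80.1 and 89.6 deposited counts in aldh2.1-/- clutches 1, 2, 3, 5 and 6, against 201, 224, 245, 207 and 213 in aldh2.1+/+ clutches 1, 2, 3, 5 and 6. aldh2.2, the adjacent copy of the gene, had 34.7, 44.5, 33.8, 34.5 and 41.8 counts in aldh2.1-/- clutches, against 285, 301, 319, 248 and 289 in aldh2.1+/+ clutches. Every mutant library was below every wild-type library for both genes. For aldh2.1 this is the direction of the labels, which do not name aldh2.2. The log2 fold change was -1.27 (SE 0.21) for aldh2.1 and -2.95 (SE 0.13) for aldh2.2, so the copy that the labels do not name differed more. The row read as aldh2.1 was matched to that name by exclusion. Estimated counts of both copies were fractional, so reads were shared with other transcripts, and how far the shared reads set either value was not tested. The libraries held 19792930 to 20703518 counts each, with no gap between the genotypes. In such bulk RNA, fewer cells of a type and less RNA per cell cannot be told apart.

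zgc:153044 was lower in the mutants. It had 63, 61, 48, 43 and 36 counts in aldh2.1-/- clutches 1, 2, 3, 5 and 6, against 95, 105, 87, 80 and 94 in aldh2.1+/+ clutches 1, 2, 3, 5 and 6. The genotypes did not overlap, and the mutant clutches spread more widely, with clutches 1 and 2 high and clutch 6 low. In TPM, which adjusts for transcript length and scales every library to one total, the values were 6.76, 6.17, 5.23, 4.33 and 3.92 in aldh2.1-/- clutches, against 9.93, 11.5, 8.36, 8.15 and 9.93 in aldh2.1+/+ clutches. The mean was 5.28 ± 1.20 TPM in aldh2.1-/- and 9.57 ± 1.35 TPM in aldh2.1+/+ (SD, n = 5 each). The fitted level in aldh2.1-/- was 0.532 times that in aldh2.1+/+, a log2 fold change of -0.91 (SE 0.16), given as a description because this contrast chose the gene.

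The counts of zgc:153044 were low enough for counting error to matter. In CPM, counts relative to the library total after TMM scaling, the lowest aldh2.1+/+ clutch (clutch 5) was 1.34 times the highest aldh2.1-/- clutch (clutch 2). By raw count, the nearest clutches were aldh2.1-/- clutch 1 and aldh2.1+/+ clutch 5. The 63 counts of aldh2.1-/- clutch 1 have an exact 95% Poisson interval of 48.4 to 80.6, and the 80 counts of aldh2.1+/+ clutch 5 have one of 63.4 to 99.6, which overlap. The intervals of the extremes do not, with 25.2 to 49.8 for the 36 counts of aldh2.1-/- clutch 6 and 85.9 to 127.1 for the 105 counts of aldh2.1+/+ clutch 2. Those clutches were picked as the farthest apart in a gene chosen for its difference, so their separation was set by that choice. These intervals cover counting error only. The coefficient of variation of the CPM was 19.0% in aldh2.1-/- and 9.35% in aldh2.1+/+. All 10 libraries gave whole-number counts for zgc:153044, so no reads were divided between it and another gene. Reads per TPM were divided by a factor for each library, set from the same ratio in genes with many counts. The scaled value, which depends on the effective transcript length, ran from 9.41 to 9.63 in aldh2.1-/- and from 9.55 to 9.64 in aldh2.1+/+.

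mthfd2 was higher in the mutants, by the smallest margin of the 3 genes and at the highest level. It had 681, 709, 612, 556 and 588 counts in aldh2.1-/- clutches 1, 2, 3, 5 and 6, against 436, 501, 431, 477 and 437 in aldh2.1+/+ clutches 1, 2, 3, 5 and 6. The lowest mutant clutch lay above the highest wild-type clutch, a gap of 1.17 times in CPM. In TPM the values were 16.6, 16.4, 15.2, 12.8 and 14.4 in aldh2.1-/- clutches, against 10.4, 12.5, 9.46, 11.0 and 10.5 in aldh2.1+/+ clutches. On that scale the nearest clutches, 12.8 TPM in aldh2.1-/- clutch 5 and 12.5 TPM in aldh2.1+/+ clutch 2, almost met. The mean was 15.1 ± 1.53 TPM in aldh2.1-/- and 10.8 ± 1.11 TPM in aldh2.1+/+ (SD, n = 5 each), and the fitted log2 fold change was 0.43 (SE 0.08), or 1.35 times. The coefficient of variation was 7.64% in aldh2.1-/- and 6.25% in aldh2.1+/+, the lowest of the 3 genes in both genotypes. None of the libraries gave a whole number for mthfd2, so part of its reads were assigned by estimate. Reads per TPM, scaled by library in the same way, were close, at 41.9 to 42.5 in aldh2.1-/- and 42.0 to 42.1 in aldh2.1+/+.

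ugt2a5 was higher in the mutants, at the lowest TPM of the 3 genes. It had 93.4, 69.9, 91.5, 72.9 and 80.6 counts in aldh2.1-/- clutches 1, 2, 3, 5 and 6, against 36.7, 42.9, 39.6, 47.6 and 44.0 in aldh2.1+/+ clutches 1, 2, 3, 5 and 6. No value was shared, and the nearest clutches differed 1.42 times in CPM. In TPM the values were 2.51, 1.79, 2.29, 1.61 and 1.99 in aldh2.1-/- clutches, against 0.847, 1.18, 0.813, 1.03 and 0.988 in aldh2.1+/+ clutches. The mean was 2.04 ± 0.366 TPM in aldh2.1-/- and 0.971 ± 0.148 TPM in aldh2.1+/+ (SD, n = 5 each). The fitted log2 fold change was 0.92 (SE 0.14), or 1.89 times. Ranked by mean TPM in aldh2.1+/+ larvae, ugt2a5 stood at percentile 12.2 of the tested genes, zgc:153044 at 66.8 and mthfd2 at 69.6.

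**Figure D1:**
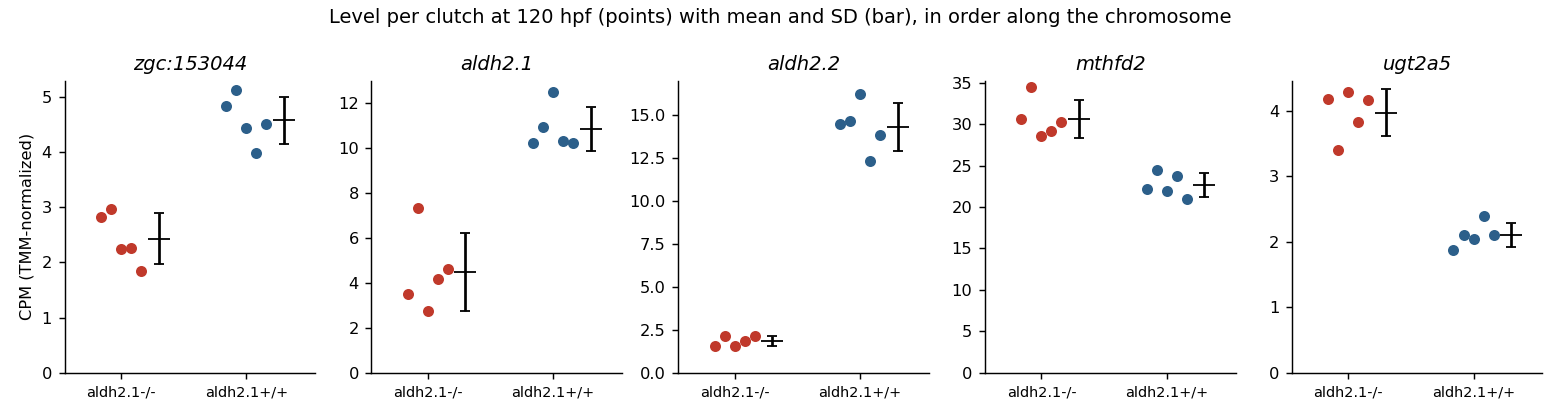
Level of each gene in CPM (vertical axes, starting at 0) in the 5 aldh2.1-/- clutches (red) and the 5 aldh2.1+/+ clutches (blue), 1 point per clutch, with the mean and SD as a black bar. In zgc:153044, aldh2.1 and aldh2.2 all red points lie below all blue points, and in mthfd2 and ugt2a5 all red points lie above all blue points.

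Ratios of counts within a library do not depend on how libraries are scaled, and they set the genes that differed in opposite directions against each other. mthfd2 had 10.8 to 16.3 times the counts of zgc:153044 in aldh2.1-/- clutches (median 12.8), against 4.59 to 5.96 times in aldh2.1+/+ clutches (median 4.77). ugt2a5 had 1.15 to 2.24 times the counts of zgc:153044 in aldh2.1-/- clutches (median 1.69), against 0.386 to 0.595 times in aldh2.1+/+ clutches (median 0.456). In every mutant library ugt2a5 had more counts than zgc:153044, and in every wild-type library it had fewer. The genes were chosen on this contrast, so the separation of these ratios follows from that choice and is description only. aldh2.1-/- clutch 2, with the highest aldh2.1 count of the mutants, had the highest CPM of zgc:153044 (2.97) and of mthfd2 (34.5) and the lowest of ugt2a5 (3.41). That clutch was singled out after its values were seen, and the other mutant clutches did not rank in this way. Clutch 6, next highest in aldh2.1 (4.63 CPM), had the lowest zgc:153044 (1.85 CPM). Clutch 1, with less aldh2.1 (3.50 CPM), had 2.83 CPM of zgc:153044.

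The other genes around aldh2.1 were not chosen by the rule, and they were compared with an edgeR quasi-likelihood test fitted over all genes. The nearest 25 tested genes on each side of aldh2.1 in chromosome order hold the 3 genes, aldh2.2 and 46 others. Of the 46 others, 16 (34.8%) had an unadjusted p under 0.05, 2 of them higher and 14 lower in aldh2.1-/-, where 5.04% of all tested genes did. No overlap between the genotypes in CPM was seen for 5 of the 46 (10.9%), 1 higher and 4 lower, where 0.725% of all tested genes showed none. After Benjamini-Hochberg adjustment over all genes in edgeR, 0 of the 46 were under 0.05. Only 2 of the 21532 genes (0.00929%) passed that threshold, aldh2.2 and a gene without a symbol, and DESeq2 called 22. Of the 46, 15 were higher and 31 lower in aldh2.1-/-, and the excess of lower genes lay mostly before aldh2.1. Their median log2 fold change was -0.09 and their median absolute log2 fold change 0.18, against 0.01 and 0.10 over all tested genes. With 1 library left out, 9 to 13 of the 46 (19.6% to 28.3%) had such a p, and the lowest count, 9, came without aldh2.1+/+ clutch 3, 5 or 6, where 4.54%, 4.32% and 4.26% of all tested genes had one. Without aldh2.1-/- clutch 5 the share of all tested genes was 12.2%, and 12 of the 46 (26.1%) had such a p.

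**Figure D2:**
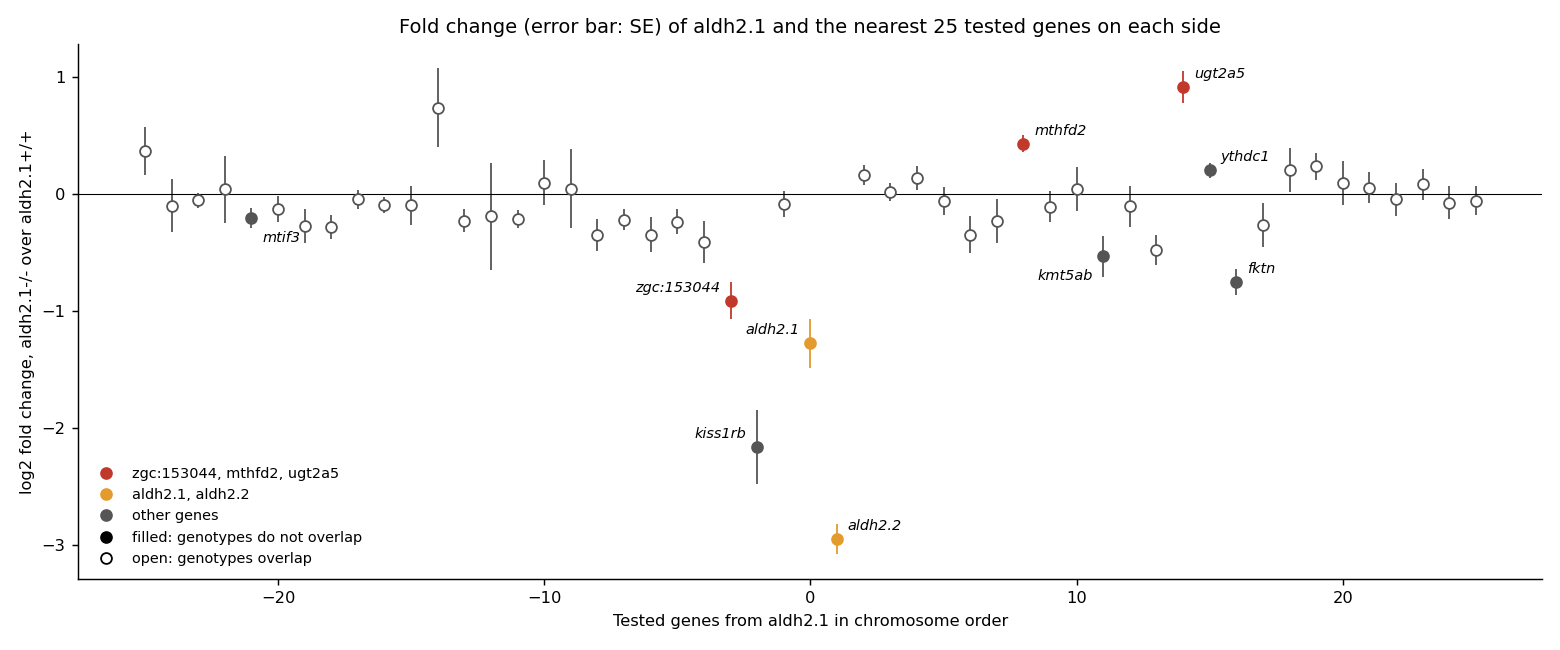
Log2 fold change of aldh2.1-/- over aldh2.1+/+ (vertical axis, error bars show the SE) of aldh2.1 and the nearest 25 tested genes on each side, in chromosome order (horizontal axis, number of tested genes from aldh2.1). Filled points are genes whose genotypes do not overlap in CPM: besides zgc:153044, mthfd2, ugt2a5 (red), aldh2.1 and aldh2.2 (orange), these are mtif3, kiss1rb, kmt5ab and fktn, which were lower, and ythdc1, which was higher.

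The share was high on both sides. Before aldh2.1, on the side of zgc:153044, 11 of 24 others had an unadjusted p under 0.05, 10 of them lower in aldh2.1-/-, and 2 showed no overlap. By sign alone, 5 of these 24 were higher and 19 lower (median -0.16 on the log2 scale). After aldh2.1, on the side of mthfd2 and ugt2a5, 5 of 22 others had such a p, 4 of them lower, and 3 showed no overlap. By sign alone, 10 of these 22 were higher and 12 lower (median -0.05 on the log2 scale). Farther out on chromosome 5, 54 of 810 tested genes (6.67%) had an unadjusted p under 0.05 and 6 (0.741%) showed no overlap. On the other chromosomes the shares were 4.53% and 0.676% of 14344 genes. In blocks of 25 consecutive tested genes, the 31 full blocks farther away held 0 to 5 genes with such a p and 0 or 1 without overlap. The short last block before the chromosome end, 16 genes beyond the nearest 25, held 4 with such a p and 2 without overlap. Within the nearest 10 on each side, 7 of 17 others had an unadjusted p under 0.05, all of them lower in aldh2.1-/-.

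**Figure D3:**
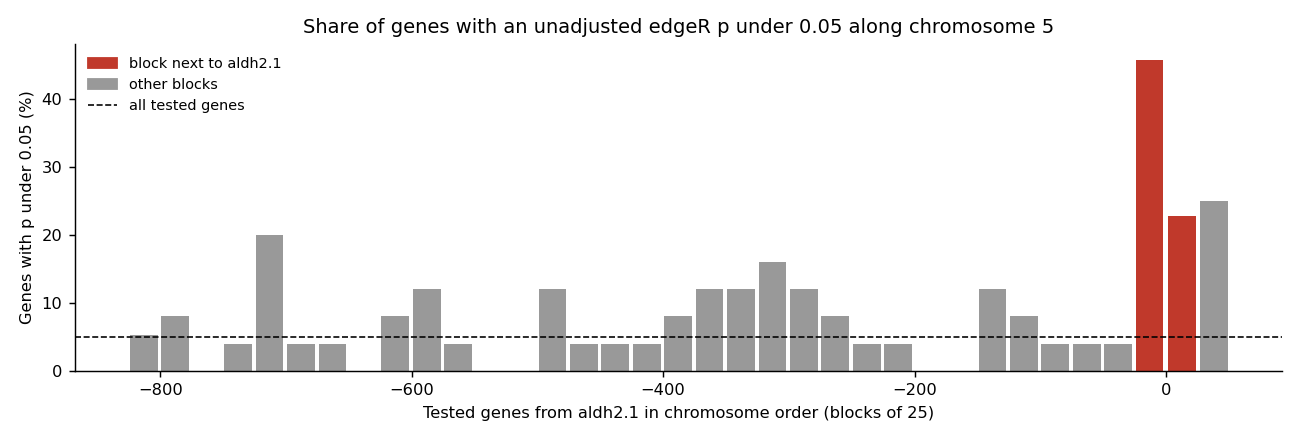
Share of tested genes with an unadjusted edgeR p under 0.05 (vertical axis, percent) in blocks of 25 consecutive tested genes along chromosome 5 (horizontal axis, number of tested genes from aldh2.1), without zgc:153044, mthfd2, ugt2a5, aldh2.1 and aldh2.2. The red blocks next to aldh2.1 hold 11 of 24 and 5 of 22 genes, and the dashed line marks the 5.04% of all tested genes.

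Next to zgc:153044, kiss1rb, a receptor for kisspeptin peptides, differed most in fold among the 46 others. It had 8, 2, 5, 6 and 8 counts in aldh2.1-/- clutches 1, 2, 3, 5 and 6, against 32, 22, 21, 24 and 30 in aldh2.1+/+ clutches. The genotypes were far apart, though the counts were few. Its log2 fold change was -2.16 (SE 0.32), with an edgeR adjusted p of 0.0584. Over the alternatives that gave an adjusted p, it ran from 0.0328, without aldh2.1-/- clutch 5, to 0.395. DESeq2 gave none for this gene, which also did not pass the filter of 10 counts in every library, and limma on log2(TPM + 1) gave a log2 difference of -0.87. The next gene, mapkapk5, a kinase activated by MAP kinases that sits directly beside aldh2.1 and was singled out after its values were seen, had a log2 fold change of -0.08 (SE 0.11). On the other side of zgc:153044, tmem116, a transmembrane protein, had a log2 fold change of -0.41 (SE 0.18, edgeR adjusted p 0.921), and -0.17 with limma on log2(TPM + 1). Along the chromosome, the order zgc:153044, kiss1rb, mapkapk5 and aldh2.1 thus ran through log2 fold changes of -0.91, -2.16, -0.08 and -1.27.

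The genes beside mthfd2 did not separate the genotypes. dguok, the mitochondrial deoxyguanosine kinase, had 37 to 64 counts in aldh2.1-/- clutches and 53 to 64 in aldh2.1+/+ clutches, with a log2 fold change of -0.23 (SE 0.19), and -0.36 to -0.13 with each library left out (-0.36 without aldh2.1-/- clutch 5, -0.13 without aldh2.1-/- clutch 2, -0.14 without aldh2.1-/- clutch 3). On log2(TPM + 1), limma gave -0.09 for dguok. arl6ip4 had 193 to 268 counts in aldh2.1-/- clutches and 214 to 283 in aldh2.1+/+ clutches, with a log2 fold change of -0.11 (SE 0.13). Leaving out each library gave -0.20 to -0.03 for arl6ip4, with -0.20 without aldh2.1-/- clutch 6, -0.03 without aldh2.1-/- clutch 1 and -0.05 without aldh2.1+/+ clutch 6, and limma on log2(TPM + 1) gave -0.06. Neither had an unadjusted p under 0.05.

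The genes beside ugt2a5 went in opposite directions. ythdc1, which reads methylated adenosines in nuclear RNA, had 1531, 1371, 1678, 1402 and 1307 counts in aldh2.1-/- clutches, against 1269, 1287, 1174, 1146 and 1314 in aldh2.1+/+ clutches. Its genotypes were apart in CPM by a narrow gap, and the raw counts overlapped. Its log2 fold change was 0.21 (SE 0.06, edgeR adjusted p 0.921). fsd1l had 163, 125, 123, 97 and 130 counts in aldh2.1-/- clutches, against 137, 195, 161, 185 and 192 in aldh2.1+/+ clutches, a log2 fold change of -0.48 (SE 0.13, edgeR adjusted p 0.900). In CPM, only aldh2.1-/- clutch 1 and aldh2.1+/+ clutch 1 crossed over.

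A little farther on, fktn, which encodes fukutin, an enzyme of alpha-dystroglycan glycosylation, had 196, 225, 257, 264 and 230 counts in aldh2.1-/- clutches, against 395, 383, 354, 407 and 405 in aldh2.1+/+ clutches. The genotypes were widely apart, and of all 46 others fktn had the smallest p. The log2 fold change was -0.75 (SE 0.11), with an edgeR adjusted p of 0.0584. It passed the threshold with library size alone (adjusted p = 0.0461), with DESeq2 (1.56e-06), with no filter on low counts (0.0475), without aldh2.1-/- clutch 1 (0.0408) and without aldh2.1-/- clutch 5 (0.0123), and its adjusted p reached 0.322 in the others. Thus fktn was lower and ugt2a5 higher in the same mutant libraries, 2 protein-coding genes apart along the chromosome.

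Of the remaining genes with an unadjusted p under 0.05, some were apart in CPM. kmt5ab, a histone methyltransferase, had 62 to 102 counts in aldh2.1-/- clutches and 100 to 142 in aldh2.1+/+ clutches, with a log2 fold change of -0.53 (SE 0.17). mtif3, a translation initiation factor of mitochondria, had a log2 fold change of -0.20 (SE 0.08). The genotypes of both genes were apart in CPM by narrow gaps, and the raw counts of both overlapped. The nearest clutches of aldh2.1-/- and aldh2.1+/+ had 5.04 and 5.10 CPM for kmt5ab, and 11.18 and 11.42 CPM for mtif3. In TPM mtif3 also overlapped, with up to 15.4 in aldh2.1-/- and down to 12.7 in aldh2.1+/+ clutches. The splicing factor usp39 (-0.21, SE 0.07), the ubiquitin ligase rnf167 (-0.28, SE 0.10), the selenoprotein selenom (-0.35, SE 0.14) and the smoothelin gene smtnb (-0.22, SE 0.09) were also lower on the log2 scale, with overlap between the genotypes. Each of these 6 genes had an unadjusted p under 0.05, and an edgeR adjusted p of 0.921. In smtnb the value on the deposited TPM scale was -0.03 (SE 0.11, limma on log2(TPM + 1)). The last 4 such genes besides psat1 fell outside the rule for naming genes and were singled out after their values were seen. h1m, a linker histone gene, was higher, with 4.61 ± 2.49 CPM in aldh2.1-/- and 2.75 ± 0.72 CPM in aldh2.1+/+ (SD, n = 5 each) and a log2 fold change of 0.74 (SE 0.34). isca1 (-0.34, SE 0.15), ephb4a (-0.23, SE 0.10) and znf1005 (-0.35, SE 0.16) were lower on the log2 scale, and all 4 had an edgeR adjusted p of 0.921. When TPM was used in place of CPM, 3 of the 46 others (6.52%) were apart, where 0.581% of all tested genes were.

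The pathway of mthfd2 was then read, without mthfd2, from a list of folate-dependent one-carbon and serine synthesis genes. All 30 listed genes were tested, and 2 had an unadjusted p under 0.05, 1 higher and 1 lower, a share of 6.67% beside the 5.04% of all tested genes. None passed the edgeR adjustment. The list had 20 genes higher and 10 lower, and its median log2 fold change was 0.07, against 0.01 over all tested genes. MTHFD1L, the mitochondrial enzyme that releases formate downstream of mthfd2, lies on chromosome 20 and was the gene that was higher. It had 149, 93, 119, 83 and 129 counts in aldh2.1-/- clutches 1, 2, 3, 5 and 6, against 73, 74, 78, 79 and 77 in aldh2.1+/+ clutches. The counts did not overlap, although in TPM aldh2.1-/- clutch 5 (0.794) lay below aldh2.1+/+ clutch 1 (1.25). The log2 fold change was 0.55 (SE 0.15, edgeR adjusted p 0.900).

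psat1, the phosphoserine aminotransferase of serine synthesis, is on this list and also lies 5 protein-coding genes before aldh2.1. It had 415, 435, 335, 319 and 348 counts in aldh2.1-/- clutches, against 378, 391, 413, 507 and 443 in aldh2.1+/+ clutches. The genotypes overlapped, with a log2 fold change of -0.23 (SE 0.10, edgeR adjusted p 0.921). The 4 genes of the list with the highest TPM were PSPH, a phosphatase of serine synthesis (0.04, SE 0.12), DLD and gcsha of the glycine cleavage system (0.08, SE 0.08, and 0.01, SE 0.10) and SHMT2, the mitochondrial serine hydroxymethyltransferase (0.18, SE 0.22, all log2 fold changes). SHMT2, the step before mthfd2, varied strongly among mutants, with 31.5, 19.6, 18.8, 9.21 and 12.2 TPM in aldh2.1-/- clutches 1, 2, 3, 5 and 6, against 15.1, 15.4, 13.7, 15.2 and 16.6 TPM in aldh2.1+/+ clutches. The mutant clutches of mthfd2 varied less, within 12.8 to 16.6 TPM, but ranked in the same order as those of SHMT2 on that scale. In CPM the orders differed, with SHMT2 highest in aldh2.1-/- clutch 1 (34.3) and mthfd2 highest in aldh2.1-/- clutch 2 (34.5). Whether the 2 genes vary together was not tested.

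**Figure D4:**
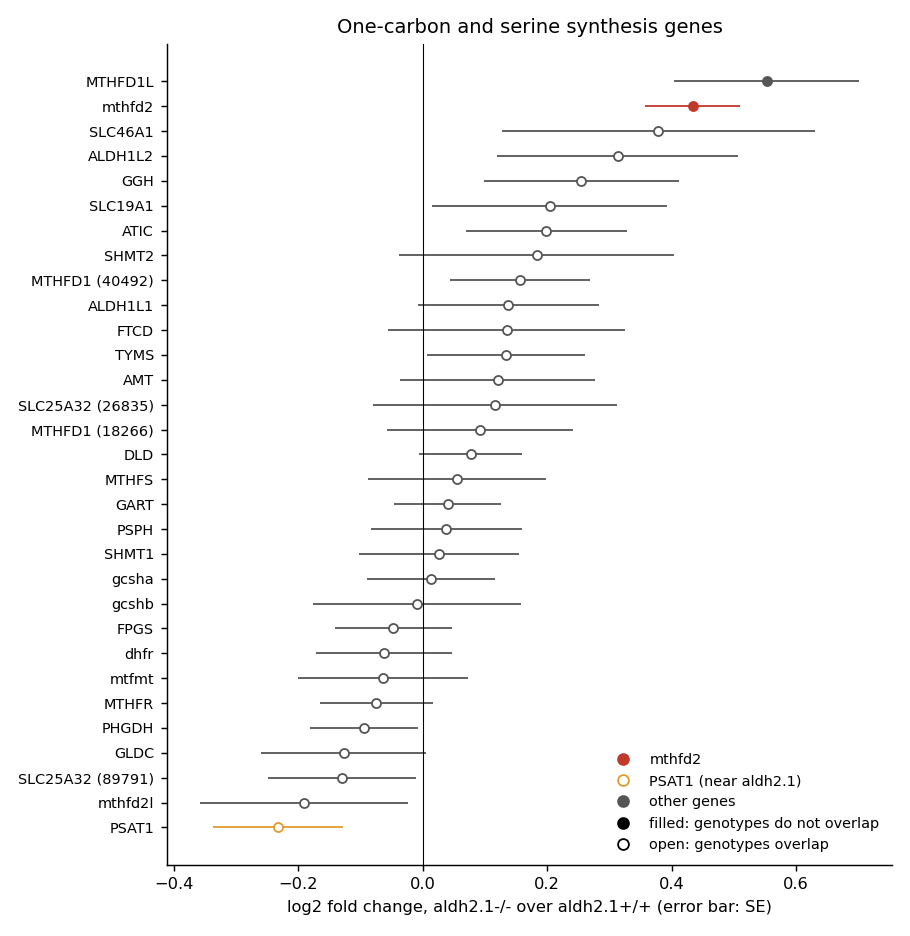
Log2 fold change of aldh2.1-/- over aldh2.1+/+ (horizontal axis, error bars show the SE) for the one-carbon and serine synthesis genes, with mthfd2 in red and PSAT1 in orange. Filled points mark genes whose genotypes do not overlap in CPM, and besides mthfd2 only MTHFD1L, at 0.55, is filled.

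For ugt2a5, the other UDP-glucuronosyltransferase genes and the enzymes that make UDP-glucuronate were read in the same way. Of 31 listed genes besides ugt2a5, 21 were tested, 10 higher and 11 lower, and 2 had an unadjusted p under 0.05 (9.52%, beside the 5.04% of all tested genes), 1 in each direction. None passed the edgeR adjustment, and the median log2 fold change was -0.01. ugt2a6 had 37.8, 34.7, 29.9, 24.0 and 29.9 counts in aldh2.1-/- clutches 1, 2, 3, 5 and 6, against 19.4, 7.76, 17.8, 16.1 and 11.6 in aldh2.1+/+ clutches. Its genotypes did not overlap, and its log2 fold change was 1.06 (SE 0.26, edgeR adjusted p 0.809). The gene that was lower, ugt5c3 on chromosome 18, had a log2 fold change of -0.42 (SE 0.18, edgeR adjusted p 0.921). The highest in TPM were UGT1A1 (log2 fold change 0.04, SE 0.19), both UGP2 copies, which make UDP-glucose (0.66, SE 0.40, and -0.01, SE 0.09), and ugt1b5 (-0.02, SE 0.13).

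Genes of the ugt2a group share much of their sequence, and all counts of ugt2a5 were fractional, so its value depends on how shared reads were divided. Which transcripts shared reads with ugt2a5 was not tested. ugt2a4, on chromosome 5 shortly after fktn, had 209, 138, 169, 140 and 123 counts in aldh2.1-/- clutches, against 260, 202, 173, 135 and 139 in aldh2.1+/+ clutches, a log2 fold change of -0.26 (SE 0.19). ugt2a7 had 75.4, 61.6, 56.3, 84.8 and 92.1 counts in aldh2.1-/- clutches, against 82.4, 112, 36.0, 46.1 and 86.2 in aldh2.1+/+ clutches, a log2 fold change of 0.02 (SE 0.28). Neither gene separated the genotypes.

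Summed over ugt2a4, ugt2a5, ugt2a6 and ugt2a7, the counts were 304 to 415 in aldh2.1-/- clutches (mean 342 ± 43.3, SD, n = 5) and 245 to 399 in aldh2.1+/+ clutches (mean 311 ± 66.8, SD, n = 5). Fitted as a single gene, the sum had a log2 fold change of 0.10 (SE 0.13), and the summed counts overlapped between the genotypes. ugt2a1 and ugt2a2, annotated between fktn and ugt2a4, were not part of the sum. ugt2a5 made up 22.5% to 26.4% of the sum in aldh2.1-/- clutches and 9.20% to 19.4% in aldh2.1+/+ clutches, without overlap. ugt2a5 was chosen on this contrast, so the separation of its share largely follows from that choice and is description only. Because the other genes made up most of the sum, the sum cannot show whether ugt2a5 alone differed. Reads per TPM of ugt2a5, scaled by library as above, ran from 38.2 to 43.9 in aldh2.1-/- and from 38.1 to 45.1 in aldh2.1+/+. This range was wider than for zgc:153044 or mthfd2. Whether sequence differences between the mutant and wild-type chromosomes moved reads among these genes was not tested.

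**Figure D5:**
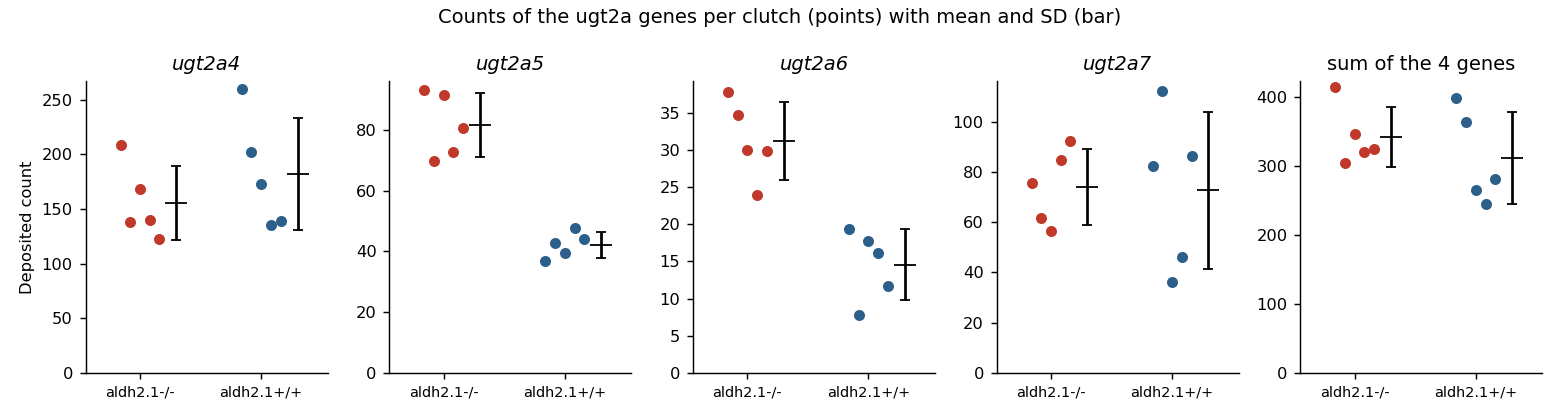
Deposited counts (vertical axes, starting at 0) of 4 ugt2a genes and their sum in the 5 aldh2.1-/- clutches (red) and 5 aldh2.1+/+ clutches (blue), with the mean and SD as a black bar. The genotypes are apart in ugt2a5 and ugt2a6 and overlap in ugt2a4, ugt2a7 and the sum, which runs from 304 to 415 in aldh2.1-/- and from 245 to 399 in aldh2.1+/+.

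Tissue markers were read because whole larvae mix all tissues. Markers of the intestine, a main site of glucuronidation, summed to 369 to 623 TPM in aldh2.1-/- clutches (median 474) and 328 to 1245 TPM in aldh2.1+/+ clutches (median 576). Liver markers summed to 676 to 1112 TPM in aldh2.1-/- clutches (median 776) and 701 to 1355 TPM in aldh2.1+/+ clutches (median 807). A few genes made up much of these sums. In liver, fabp10a had 404 to 614 TPM in aldh2.1-/- clutches and 486 to 961 TPM in aldh2.1+/+ clutches. In intestine, FABP6 had 135 to 273 and 132 to 562 TPM, and FABP2 125 to 176 and 114 to 412 TPM, in the same order. Kidney markers summed to 55.2 to 99.96 TPM in aldh2.1-/- clutches and 56.1 to 88.7 TPM in aldh2.1+/+ clutches, and exocrine pancreas markers to 119.5 to 359 TPM in aldh2.1-/- clutches and 118 to 240 TPM in aldh2.1+/+ clutches. All 4 sums overlapped between the genotypes, and their part in the values of zgc:153044, mthfd2 and ugt2a5 was not tested. Over single markers, the median log2 fold change was -0.30 for intestine, -0.02 for liver, 0.09 for kidney and 0.18 for exocrine pancreas. The listed pancreas markers ctrb1 and cpa5 were not found. An unadjusted p under 0.05 was seen for 1 of 11 liver, 1 of 11 intestine, 1 of 7 kidney and 0 of 6 pancreas genes, together 3 of 35 (8.57%, beside 5.04% of all tested genes), and 0 of these markers were at 0 in all libraries.

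For each of the 3 genes, the closest patterns over the 10 libraries were listed, by the mean absolute difference between centred log2 CPM values. Some genes are closest to any gene, and the 3 genes were chosen for their difference between these genotypes. Their likeness to other genes is therefore description only. The pattern closest to zgc:153044 was that of tnfsf13b on chromosome 9 (0.198, with a median of 0.472 over all tested genes), followed by si:dkeyp-67e6.3 (0.202) and ENSDARG00000096988 (0.203). The closest to mthfd2 were RNPEP on chromosome 11 (0.069, median 0.270), zgc:174895 on chromosome 15 (0.080) and vwa3a on chromosome 3 (0.084). The closest to ugt2a5 were ACAD9 on chromosome 11 (0.149, median 0.459), helz2a on chromosome 6 (0.153) and si:ch211-157b11.8 on chromosome 6 (0.162). Of these 9 genes, 7 were placed on a chromosome and none of the 7 on chromosome 5. Chromosome 5 holds 861 of the 15205 tested genes that were placed, so 7 genes are too few to differ from that share. Some of the alike genes had few counts. vwa3a had 11 to 13 counts in aldh2.1-/- and 8 to 10 in aldh2.1+/+ clutches, tnfsf13b 8 to 16 and 21 to 29, and si:ch211-157b11.8 13 to 18 and 7 to 12.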

How the data were processed

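Per the methods, each library came from a clutch of 50 larvae and was read on the BGISEQ-500. The submitters' processing notes name Trim Galore 0.6.4, kallisto 0.4.6 and build GRCz11. The authors deposited estimated counts per gene, not normalized, and TPM values. The members and the gene lists were chosen with earlier results of these data known.

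Counts were rounded and fitted with edgeR 4.0.16 in R 4.3.3 (TMM, filterByExpr, robust quasi-likelihood, no covariate, Benjamini-Hochberg over 21532 genes). The script was tested on simulated data. Tried as alternatives were DESeq2 1.42.0, limma 3.58.1 with pseudocounts of 1 or 0.1 added to TPM before the log2 step, scaling by library size only, a replicate block, no filter or a minimum of 10 counts throughout, other widths and call rules, and leaving out each library. Between libraries of the same genotype, chi-square over its degrees of freedom was 7.12 or more, so none was a duplicate.

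Symbols were known for 29201 of 32520 genes. In the RefSeq gene order (GRCz12tu) 17999 were placed, 16968 by symbol, 448 by synonym and 583 by exclusion, where a human-style symbol could fit only a single unclaimed copy. ALDH2 was so taken as aldh2.1 and KISS1R as kiss1rb. Placing by exclusion was chosen after seeing the data. Named neighbours were the gene on each side of each member and the 10 with the smallest p. For each list, genes with an unadjusted p under 0.05 and the 4 of highest TPM were named, and for each member the 3 most alike genes.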

Additional observations from a re-analysis of the deposited data

Results flagged for a closer look

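In 60 groups of 5 clutches looked at, a single clutch stood far from the other 4 in 2, and chance alone would mark about 1 in 20 groups. ugt5c3 had 3.31 CPM in aldh2.1-/- clutch 2, below 4.58 to 4.72 CPM in the other aldh2.1-/- clutches. UGT1A1 had 41.9 CPM in aldh2.1-/- clutch 1, above 29.5 to 30.8 CPM in the other aldh2.1-/- clutches. No clutch stood apart in this way for zgc:153044, mthfd2 or ugt2a5.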

How the results depend on the processing

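Leaving out each library in turn gave log2 fold changes of -0.99 to -0.83 for zgc:153044, 0.39 to 0.46 for mthfd2 and 0.88 to 0.97 for ugt2a5. For ugt2a5, limma on log2(TPM + 1) gave 0.62. The summed ugt2a counts, chosen after seeing the data, gave 0.10 (SE 0.13). ugt2a5 was 9.20% to 19.4% of that sum in aldh2.1+/+ clutches, so the sum says little about ugt2a5 alone. No result reversed. Calls after adjustment over all genes, 2 in the report, numbered 22 with DESeq2, 4 with no filter and 2 to 48 with each library left out (48 without aldh2.1-/- clutch 5, 4 without aldh2.1-/- clutch 1). Under other rules 1086 genes had an unadjusted p under 0.05 and 156 showed no overlap. The 16 neighbours stayed 16 with no filter and became 15 with DESeq2 or 10 counts in every library. They became 12 with library size alone, 11 with a replicate block and 7 with limma at either pseudocount. The share of all tested genes with an unadjusted p under 0.05 in these fits is not given here. The 16 became 7 within the nearest 10, 5 by no overlap, 0 after adjustment and 9 to 13 with each library left out (9 without aldh2.1+/+ clutch 3, 5 or 6). Placing genes without exclusion, also chosen after seeing the data, gave 15. By TPM 3 of the 46 neighbours and 125 of all tested genes showed no overlap. The 2 one-carbon genes became 1 with library size alone or limma and 1 to 4 with each library left out. The 4 came without aldh2.1-/- clutch 5, where 12.2% of all tested genes had an unadjusted p under 0.05. The 2 UGT genes became 1 with library size alone, 10 counts in every library or limma and 1 to 3 with each library left out. The 3 came without aldh2.1-/- clutch 5 or 6, where 12.2% and 6.82% of all tested genes had such a p. The cause of these changes was not tested.

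The methods name no pairing of clutches, so the numbers were not taken as pairs. Clutches of equal number also did not deviate together (correlations of -0.13 to 0.11, 1 of 5 mutants closest to its own number). A replicate block gave -0.92, 0.43 and 0.91 for zgc:153044, mthfd2 and ugt2a5, and 1 call over all genes. With that block, 1 one-carbon and 1 UGT gene had an unadjusted p under 0.05. The share of all tested genes with such a p in that fit is not given here, so these counts cannot be set against it. The low counts of ugt2a5, zgc:153044 and kiss1rb limit their precision.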
